A study of Mus musculus with 21 samples.

Results

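Mitochondrial ribosomal protein genes were followed in mouse bone marrow-derived macrophages as 77 of the 47069 genes in the deposited count table. They are the genes whose symbol begins with Mrpl or Mrps and a digit, with 5 names marked as pseudogenes left out, and comprise 48 large-subunit and 29 small-subunit names. The choice went by symbol and used no measured value, but it was made with earlier results of these data known. The mitochondrial ribosome translates the few proteins that mitochondrial DNA encodes, all of them core parts of the respiratory chain and ATP synthase. Its RNAs come from mitochondrial DNA, whereas its proteins are all encoded in the nucleus, made in the cytosol and imported. Alternatively activated macrophages are known for relying on oxidative metabolism.

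The study compared macrophages left without cytokine with cells given IL-33, an alarmin read by the receptor ST2 (the product of Il1rl1), or IL-4, the reference inducer of alternative activation. Macrophages were derived from marrow of C57BL/6 mice over 5 days of culture with M-CSF-conditioned medium, and cytokine exposure lasted 36 h. There were 21 libraries in 7 groups of 3. Wild-type C57BL/6 cells were untreated, given IL-33 or given IL-4. Those labelled C57BL/6:ST2-/- were untreated or given IL-33, and so were cells labelled C57BL/6:Cx3cr1CRExGata3fl/fl, in which Cre under the Cx3cr1 gene of the myeloid lineage is meant to delete Gata3. No group of Cre-only or floxed-only cells was among the 7, and whether the 3 libraries of a group came from separate mice was not stated, so p-values measure the spread between libraries, which may be technical.

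Libraries held 32626469 to 48743646 counted reads. All 8 macrophage markers were detected in every library, from Mertk at 27.1 CPM or more to Lyz2 at 9024 CPM or more. Their sum was 27568 to 30446 CPM in untreated wild-type libraries, 37023 to 41042 with IL-33 and 14139 to 15635 with IL-4. Of the lymphocyte markers, Il7r stood at 126 to 324 CPM and Cd3e at or under 0.324 CPM. The lymphocyte list summed to 149 to 177 CPM in untreated wild-type libraries, 127 to 140 with IL-33 and 316 to 325 with IL-4. The part of these shifts in the results was not tested. The 3 erythroid genes stayed at or under 0.597 CPM. The counts per gene could not verify the deletions. Il1rl1 averaged 15.7 ± 1.45 CPM in untreated wild-type cells and 17.4 ± 2.95 in untreated cells labelled ST2-/- (SD, n = 3), and Gata3 was under 0.444 CPM everywhere. These groups are therefore called ST2KO-labelled and floxed-labelled. All 6 floxed-labelled libraries expressed Xist at 277 to 376 CPM and the other 15 at or under 0.0462, so sex and the floxed label cannot be told apart.

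Together the 77 genes took 0.186% to 0.218% of the counted reads of a library. Levels are given as CPM, which are counts scaled to library size with TMM factors. In bulk RNA a change in the number of cells of a type cannot be told apart from a change in RNA per cell. The summed level was 1921, 1975 and 1955 CPM in the 3 untreated wild-type libraries, 2112, 2073 and 2019 with IL-33, and 2227, 2113 and 2247 with IL-4. Every IL-33 library lay above every untreated one with TMM or RLE scaling. The groups overlapped with upper-quartile scaling (1943 to 2011 without cytokine and 1970 to 2065 with IL-33) and without scaling factors, a setting chosen after seeing the data (1954 to 2016 and 1960 to 2067). The IL-4 libraries lay above the untreated ones under all 4 scalings. Their lowest exceeded the highest IL-33 library by little, at 2113 against 2112 with TMM. In ST2KO-labelled cells the sums were 1923, 1998 and 1874 without cytokine and 1987, 1930 and 1821 with IL-33, which overlapped. In floxed-labelled cells they were 1936, 1896 and 1977 without cytokine and 2025, 1991 and 2140 with IL-33. These did not overlap with TMM or RLE scaling, but did with upper-quartile scaling (1930 to 2008 and 1966 to 2103) and without factors (1936 to 2001 and 1947 to 2091).

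**Figure D1:**
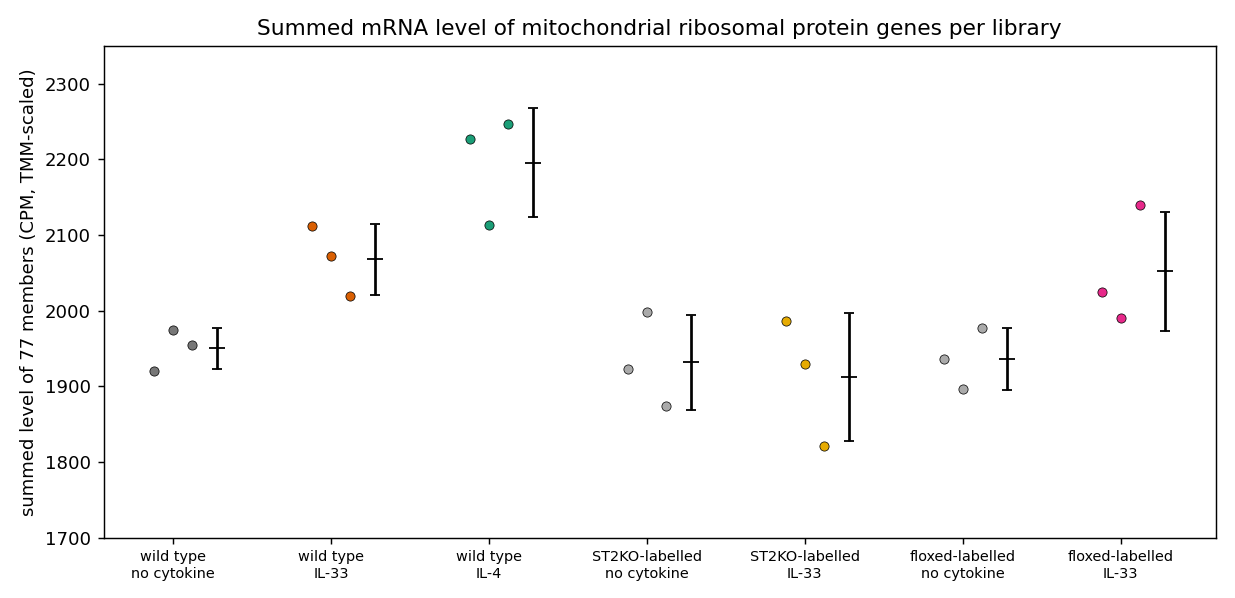
Summed level of the 77 genes in each of the 21 libraries (points, CPM on the y axis, which starts at 1700), with the mean and SD of each group of 3 (bars). Wild-type cells run from 1921 to 1975 CPM without cytokine up to 2113 to 2247 with IL-4, and the groups of ST2KO-labelled cells overlap.

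Of the 77 genes, 76 were detected and passed the filter on low counts, among 14473 genes tested. The exception, Mrpl53 (chromosome 6 in GENCODE M21), had 0 counts in all 21 libraries, which allows up to 0.0615 to 0.0919 CPM (3 counts, counting error only). Of its exon sequence 88.0% is shared with other annotated genes, so reads from it could have been left uncounted. The other 76 were spread over a narrow range, from 6.22 CPM (Mrps18b) to 57.0 CPM (Mrpl45) with a median of 25.4. Per kilobase of annotated exon, which is the scale for comparing genes, Mrpl34 (63.5 CPM per kb), Mrps21 (63.3) and Mrpl54 (35.5) stood highest. Mrps10 (1.70), Mrpl33 (1.82) and Mrps30 (1.85) stood lowest, and the median was 9.01. The exon length is the union over all annotated transcripts, which lowers the value of genes with long alternative ends.

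The members varied little among the 7 groups. The ratio of the highest to the lowest group mean had a median of 1.23, and it was under 1.5 for 70 of the 76. Mrps30 (1.07), Mrpl23, Mrpl40 and Mrps21 (1.08 each) were the steadiest. Ratios of 2 or more were seen for Mrps28 (2.24), Mrpl52 (2.22) and Mrps25 (2.05). The group with the highest mean was wild type with IL-4 for 51 of the 76, floxed-labelled with IL-33 for 10 and wild type with IL-33 for 6. Ratios and highest groups were worked out for the members only. Whether other genes of similar level differ from them in this was not tested.

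The sequences before the start sites are shown for the 3 members that rose most with IL-33 in wild-type cells, and for Mrpl12, which rose with IL-4 and whose protein is also known, from human and mouse cells, to bind the mitochondrial RNA polymerase. RefSeq promoter entries (GRCm38.p6) were matched for 68 of the 77 symbols, and Mrps28 was not matched. Each line holds the 250 bases before the RefSeq start, 5′ to 3′ on the gene's own strand, and capitals mark matches to the motifs searched.
Mrpl52, chr14:54426659-54426908, plus strand: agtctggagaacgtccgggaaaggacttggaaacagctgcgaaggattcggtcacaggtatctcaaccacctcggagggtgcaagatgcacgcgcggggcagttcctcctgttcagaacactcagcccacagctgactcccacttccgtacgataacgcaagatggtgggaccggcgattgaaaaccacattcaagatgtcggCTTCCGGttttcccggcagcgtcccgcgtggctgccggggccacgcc
Mrpl45, chr11:97315466-97315715, plus strand: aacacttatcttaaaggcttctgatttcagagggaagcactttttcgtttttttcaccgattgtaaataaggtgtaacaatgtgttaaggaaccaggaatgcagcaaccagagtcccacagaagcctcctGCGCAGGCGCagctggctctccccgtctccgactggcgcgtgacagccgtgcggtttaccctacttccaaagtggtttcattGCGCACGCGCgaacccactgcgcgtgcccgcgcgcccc
Mrps25, chr6:92184024-92184273, minus strand: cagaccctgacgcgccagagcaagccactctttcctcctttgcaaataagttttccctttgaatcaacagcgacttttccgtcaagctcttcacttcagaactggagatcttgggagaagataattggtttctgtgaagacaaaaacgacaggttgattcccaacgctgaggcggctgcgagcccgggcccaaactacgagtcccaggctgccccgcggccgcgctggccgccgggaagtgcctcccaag
Mrpl12, chr11:120484387-120484636, plus strand: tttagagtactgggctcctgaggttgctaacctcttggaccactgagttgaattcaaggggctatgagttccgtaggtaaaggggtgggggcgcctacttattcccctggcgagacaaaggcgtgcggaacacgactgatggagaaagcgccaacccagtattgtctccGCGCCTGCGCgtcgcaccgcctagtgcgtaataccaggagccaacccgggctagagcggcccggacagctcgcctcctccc
In these windows the Mrpl52 capitals are an ETS core (CCGGAAG, read on the other strand), those of Mrpl45 are NRF1 letters (GCGCA and GCGC with any single base between), those of Mrpl12 are the same letters read on the other strand, and Mrps25 held no match. No matches overlapped each other.

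Over the full 300-base entries (250 before and 50 after the start), both strands searched, the ETS core was present in 33.8% of the 74 member promoters, against 17.1% of the 12640 promoters of tested genes and 8.86% of all 32851. The NRF1 letters were in 17.6% of member promoters, against 9.72% and 4.6%, and the YY1 letters AAGATGGC in 16.2%, against 4.41% and 2.75%. Factors named for these motifs are textbook regulators of nuclear genes for mitochondria. All shares count entries, and some genes had several, such as Mrpl2 with overlapping ones. The E-box CACGTG was in 9.46% of member promoters (from 5 of the 68 members), against 9.82% and 7.15%. The STAT letters, TTC and GAA with 4 bases between, were in 4.05%, against 5.56% and 6.95%, and a kappaB form, GGG and TTTCC with 2 bases between, in none of the 74, against 1.76% and 1.63%. A match describes letters in a window and does not show that a factor binds.

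In wild-type cells IL-33 raised 14 of the 76 tested members and lowered 1, at an adjusted p under 0.05 in the edgeR quasi-likelihood test. Of all 14473 genes, 35.4% were called, 18.5% higher and 16.9% lower, so the 18.4% of members called higher was near the background. The median log2 change of the members was 0.05 beside 0.00 over all genes. Only 1 member (1.32%) moved past 1.5-fold, against 20.6% of all genes. These shares were not matched for level. In ST2KO-labelled cells, where IL-33 gave no calls, 7.03% of all genes and 0 members passed 1.5-fold. With upper-quartile scaling in place of TMM, 7 members (9.21%) were called higher and 3 lower, beside 15.6% of all genes higher and 20.8% lower, so the members called higher were then under the background and the split over all genes turned, from 2676 higher and 2446 lower to 2251 and 3010. Sorted by symbol alone, 9 of 47 large-subunit names were called, all higher, and of 29 small-subunit names 5 were higher and 1 lower. The 14 became 7 without untreated replicate 1 or IL-33 replicate 1, 8 without replicate 2 of either group and 9 without untreated replicate 3.

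Mrpl52, a large-subunit protein without a bacterial counterpart, rose most. Its gene lies on chromosome 14 (54426909 to 54429756, plus strand, GRCm38). Its level was 14.5, 15.8 and 13.7 CPM in the untreated wild-type libraries and 27.6, 33.02 and 34.8 with IL-33, a log2 change of 1.12 ± 0.13 (SE, adjusted p = 4.84e-07). All 3 IL-33 libraries were above all others of the wild type, since the IL-4 libraries held 16.0, 16.3 and 18.4 CPM. The change under IL-4 was not called (0.21 ± 0.13, adjusted p = 0.208), and IL-33 was above IL-4 when compared directly (0.91 ± 0.13, adjusted p = 5.26e-06).

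No rule set beforehand chose the neighbours described here and below. Another tested gene lay within 20000 bases of 72 members. The gene that follows Mrpl52 on the same strand, 1855 bases downstream, is Mmp14, a membrane-anchored matrix metalloproteinase. Mmp14 averaged 0.353 ± 0.231 CPM in untreated wild-type libraries and 37.5 to 89.4 CPM with IL-33 (log2 change 7.40 ± 0.49). It also rose in floxed-labelled cells, where it was 47.0 to 63.0 CPM with IL-33. With IL-4, and in both ST2KO-labelled groups, it stayed at or under 2.13 CPM. The 6 libraries with Mmp14 at 37.5 CPM or more were those with Mrpl52 at 27.6 CPM or more, and in the other 15 Mrpl52 reached at most 22.4 CPM. No exon of Mrpl52 is shared with another annotated gene, and whether reads from beyond its end entered its count was not tested.

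**Figure D2:**
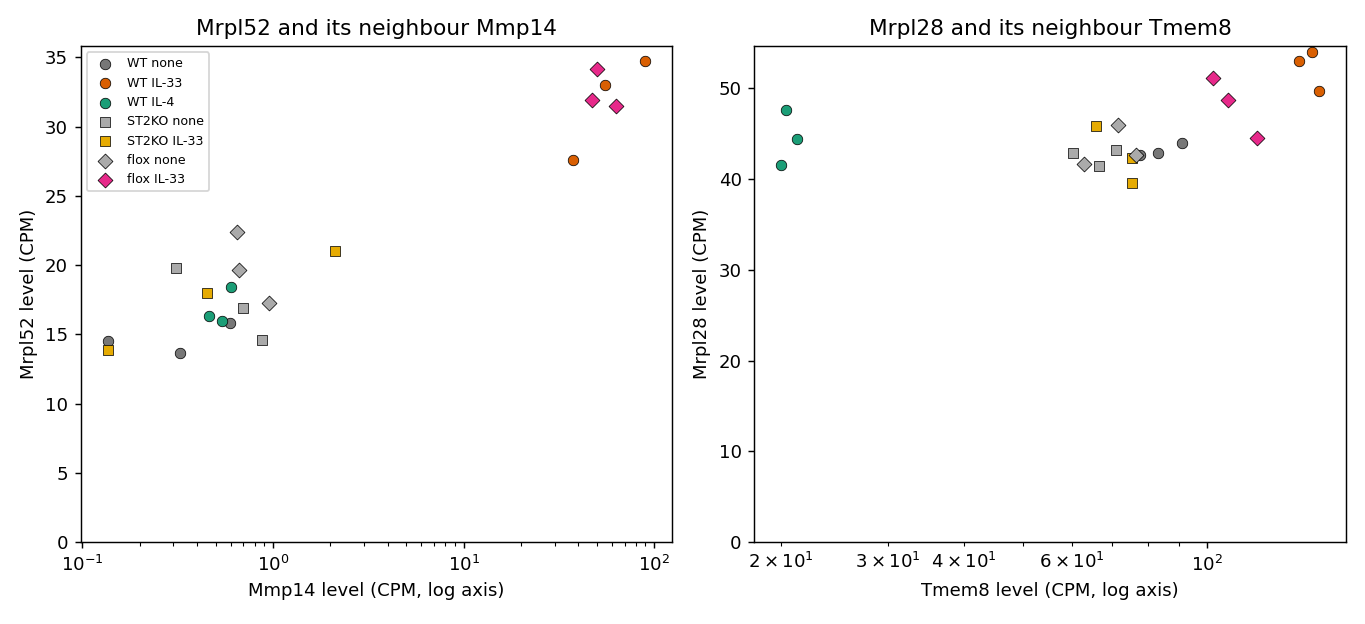
Level of Mrpl52 against its downstream neighbour Mmp14 (left) and of Mrpl28 against its upstream neighbour Tmem8 (right) in the 21 libraries, in CPM, with a log x axis. Neither neighbour was chosen by a rule set beforehand. Wild-type cells are circles, ST2KO-labelled squares and floxed-labelled (flox) diamonds. The 6 IL-33 libraries of wild-type and floxed-labelled cells stand apart at 37.5 to 89.4 CPM of Mmp14, and the IL-4 libraries at 20.05 to 21.3 CPM of Tmem8 overlap the untreated ones in Mrpl28.

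Mrpl45, a large-subunit protein at the exit of the nascent chain that ties the ribosome to the inner membrane, was the most tightly measured of the risers. It lies on chromosome 11 (97315716 to 97329920, plus strand) and shares no exon with another gene. Its level was 54.0, 54.4 and 51.4 CPM without cytokine and 76.6, 74.8 and 75.2 with IL-33 (log2 change 0.50 ± 0.05, adjusted p = 4.69e-08). With IL-4 it was 52.1, 51.2 and 54.4 CPM, overlapping the untreated libraries (-0.02 ± 0.05, adjusted p = 0.802). IL-33 exceeded IL-4 by 0.52 ± 0.05 on the log2 scale (adjusted p = 1.61e-08).

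Mrps25, a small-subunit protein also without a bacterial counterpart, rose with both cytokines. It was at 18.8, 17.7 and 17.9 CPM without cytokine, 28.9, 24.4 and 26.3 with IL-33 and 40.3, 31.3 and 35.5 with IL-4. The groups did not overlap, and the log2 changes were 0.55 ± 0.10 with IL-33 (adjusted p = 0.000104) and 0.98 ± 0.10 with IL-4 (adjusted p = 2.02e-08). Its gene (chromosome 6, 92169525 to 92184033, minus strand) shares 69.8% of its exon sequence with Nr2c2 on the other strand, and how the counting used strand is not given in the sources used here. Nr2c2 changed by -0.13 ± 0.09 with IL-33, which was not called, and fell by 0.24 on the log2 scale with IL-4. Rbsn, an endosomal Rab effector whose gene lies 2678 bases upstream of Mrps25 on the same strand, rose by 0.51 ± 0.05 and 0.83 ± 0.05.

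**Figure D3:**
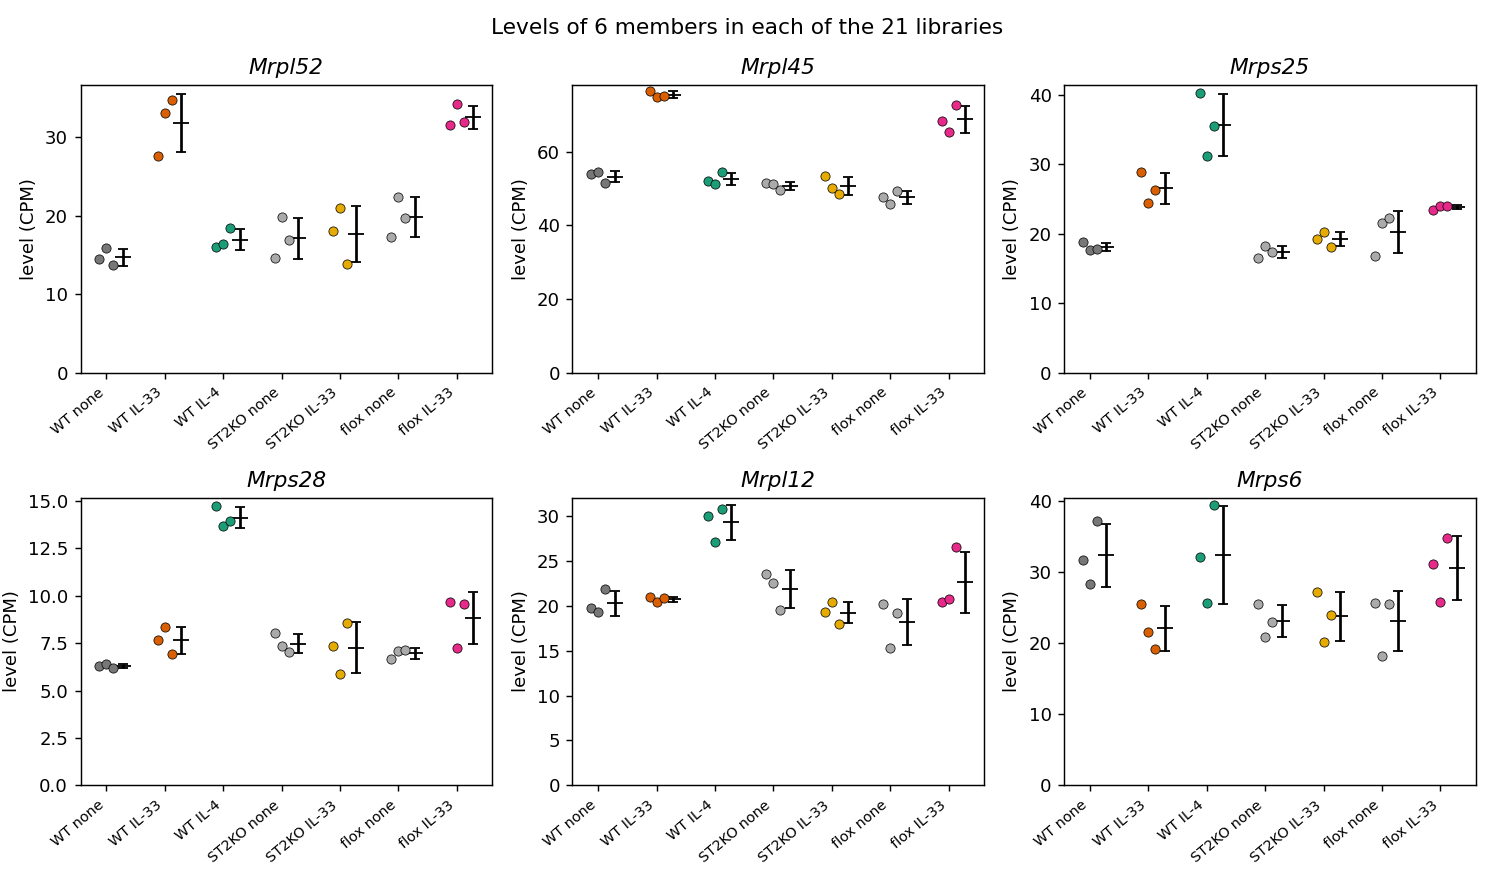
Levels of 6 members in each of the 21 libraries (points, CPM), with the mean and SD of each group of 3 (bars), where WT is wild type, ST2KO is ST2KO-labelled and flox is floxed-labelled. Mrpl52 and Mrpl45 are high in IL-33 libraries of wild-type and floxed-labelled cells, Mrps28 and Mrpl12 in wild-type cells with IL-4, and Mrps25 in both wild-type cytokine groups.

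The other IL-33 rises were smaller. Mrpl42 rose by 0.35 ± 0.08, from 21.2 to 22.4 CPM in untreated libraries to 27.2 to 28.7 CPM, and the groups did not overlap. Mrpl28, the counterpart of bacterial L28, rose by 0.28 ± 0.06, from 42.6 to 43.9 CPM to 49.7 to 53.9 CPM. Its upstream neighbour Tmem8, 245 bases away on the same strand, went from 84.0 to 148 CPM on average with IL-33 and to 20.6 CPM with IL-4, where Mrpl28 changed by 0.05 ± 0.06 and was not called. Mrps22, Mrpl33, Mrps16, Mrps17, Mrpl11, Mrpl20, Mrps14, Mrpl49 and Mrpl43 rose by 0.19 to 0.34. Of these 9, Mrpl43 stayed called in all 6 fits that left out 1 library and Mrps17 in 5. Mrpl11, Mrpl20 and Mrpl49 stayed called in 2, Mrps22 in 1, and Mrpl33, Mrps14 and Mrps16 in none.

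The member that fell with IL-33 was Mrps6, the counterpart of bacterial S6. It was at 31.8, 28.4 and 37.2 CPM without cytokine and 25.5, 21.6 and 19.2 with IL-33 (log2 change -0.55 ± 0.16, adjusted p = 0.00891). Without untreated wild-type replicate 3, the highest untreated value, the change was -0.45 and the adjusted p 0.0565. Mrps6 shares an exon on the same strand with Slc5a3, the myo-inositol transporter, which fell in the same comparison (-0.96 ± 0.23). The Mrps6 level ranged from 18.2 to 39.5 CPM over the 21 libraries, and its untreated wild-type and IL-4 groups (25.7 to 39.5 CPM) overlapped. Untreated libraries held 20.9 to 25.5 CPM in ST2KO-labelled and 18.2 to 25.6 CPM in floxed-labelled cells. Both ranges lay below that of untreated wild-type cells, though neither difference was called.

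**Figure D4:**
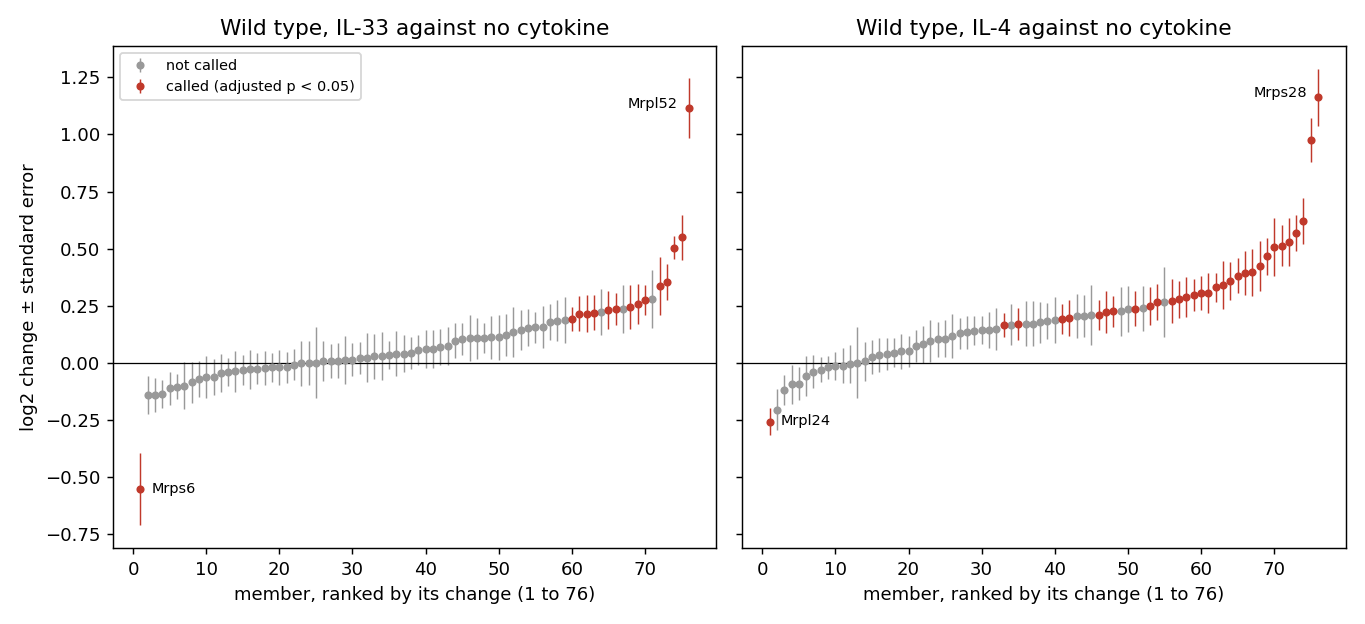
Log2 change of each of the 76 tested members in wild-type cells with IL-33 (left) and IL-4 (right) against no cytokine, ranked from lowest to highest, with standard errors. Red points are called, 15 on the left and 32 on the right, and the IL-4 points sit higher through the middle of the range, with a median of 0.18 against 0.05.

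IL-4 reached more of the members. It raised 31 of the 76 and lowered 1, where 47.6% of all genes were called, 25.1% higher and 22.5% lower. Members called higher (40.8%) thus exceeded the background share and members called lower were fewer. With upper-quartile scaling 32.9% of members and 22.2% of all genes were higher, and the split over all genes turned, from 3627 higher and 3263 lower to 3209 and 3718. The median log2 change was 0.18, a 1.13-fold rise, beside 0.01 over all genes, and 64 of 76 changes were above 0. Only 3 members (3.95%) passed 1.5-fold, against 28.5% of all genes, again not matched for level. Sorted by symbol alone, large-subunit names gave 21 higher and 1 lower of 47, and small-subunit names 10 higher of 29, Mrps36 among them. Members lower with IL-4 were 3 without untreated replicate 1 and 2 without IL-4 replicate 2. Among the called members Mrpl43 and Mrps27 share 33.4% and 24.2% of their exon sequence with genes on the other strand.

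Mrps28, the mitochondrial relative of bacterial S1, gave the largest IL-4 change. It was at 6.29, 6.38 and 6.21 CPM without cytokine and 14.7, 13.7 and 13.9 with IL-4 (log2 change 1.16 ± 0.12, adjusted p = 6.09e-08). All 3 IL-4 libraries were above the other 18, whose highest value was 9.69 CPM. With IL-33 it was at 7.67, 8.33 and 6.92 CPM, above the untreated libraries but not called (0.28 ± 0.13, adjusted p = 0.0926). Its gene, on chromosome 3 (8802146 to 8923918, minus strand), spans a long stretch with no shared exon, and Tpd52, which lies 1674 bases upstream, fell by 0.94 on the log2 scale with IL-4.

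Mrpl12 was at 19.7, 19.3 and 21.8 CPM without cytokine and 30.0, 27.1 and 30.8 with IL-4 (log2 change 0.53 ± 0.10, adjusted p = 0.000207). With IL-33 it was at 20.9, 20.4 and 20.8 CPM, inside the untreated range (0.03 ± 0.11), and the direct comparison was called (-0.50 ± 0.10, adjusted p = 0.000504). Mrps36 rose by 0.62 ± 0.10, from 14.95 to 19.5 CPM to 25.1 to 29.0 CPM with IL-4. In spite of its name, its protein is now known as a subunit of the 2-oxoglutarate dehydrogenase complex rather than of the ribosome.

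The other named IL-4 rises were Mrpl42 (0.57 ± 0.08), Mrpl15 (0.51 ± 0.09), Mrps22 (0.51 ± 0.13) and Mrps26 (0.47 ± 0.08), and each stayed called in all 6 fits without 1 library. The remaining called members rose by 0.17 to 0.43. Of all 31 rises, 16 stayed called in every such fit, and those of Mrps5 and Mrps17 in none. The called rises included Mrpl44, an RNase III-like protein whose human gene is mutated in a cardiomyopathy (0.24 ± 0.08). It stayed called in 2 of the 6 fits. Also among them was Mrps5, a protein of the decoding side known from worms for a link to lifespan (0.23 ± 0.09, adjusted p = 0.0483). Mrpl24, which lines the exit tunnel, was the member that fell. It was at 44.9, 47.8 and 49.4 CPM without cytokine and 40.4, 40.1 and 38.6 with IL-4 (-0.26 ± 0.06, adjusted p = 0.00108), with no overlap. It shares 26.3% of its exon sequence with Rrnad1 on the other strand.

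Several members of known role were not called with either cytokine. Mrps12, the decoding-centre protein named for streptomycin resistance in bacteria, changed by -0.14 ± 0.08 with IL-33 and -0.09 ± 0.08 with IL-4. Of the paralogs derived from bacterial S18, Mrps18a (counted here by its symbol, though its protein sits in the large subunit) changed by -0.14 ± 0.08 and 0.04 ± 0.07, Mrps18b by 0.00 ± 0.16 and 0.27 ± 0.15, and Mrps18c by 0.19 ± 0.10 and 0.24 ± 0.10. Mrps34, whose loss in humans gives a Leigh-like disease, changed by -0.10 ± 0.10 and 0.19 ± 0.10, and 77.8% of its exon sequence is shared with Mapk8ip3 and Nme3. Mrpl33 was called with IL-33 (0.26 ± 0.09, adjusted p = 0.0249) and not with IL-4 (-0.06 ± 0.09).

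**Figure D5:**
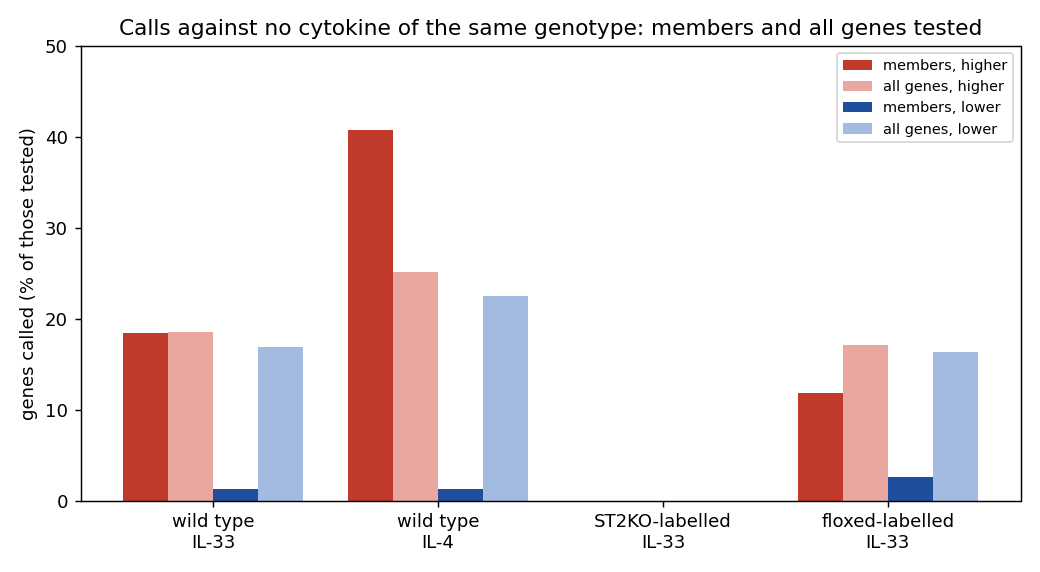
Share of tested genes called higher and lower against untreated cells of the same genotype label (y axis, % of those tested), for the 76 members and for all 14473 genes. With IL-4, 40.8% of members were called higher against 25.1% of all genes, with IL-33 in wild-type cells 18.4% against 18.5%, and in ST2KO-labelled cells no gene was called.

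Compared directly, IL-33 was higher than IL-4 in 5 members and lower in 20, where 39.9% of all genes were called, 19.2% higher and 20.7% lower. The median log2 difference was -0.11 beside -0.01 over all genes. The 5 higher with IL-33 were Mrpl52, Mrpl45, Mrpl33, Mrpl28 and Mrpl24, all of the large subunit. Those lower by most were Mrps28 (-0.88 ± 0.12), Mrps6 (-0.55 ± 0.16), Mrpl12 (-0.50 ± 0.10), Mrps25 (-0.43 ± 0.10), Mrps36 (-0.40 ± 0.10), Mrps26 (-0.39 ± 0.08), Mrpl55 (-0.35 ± 0.10) and Mrpl15 (-0.33 ± 0.09). The number lower was 10 without IL-33 replicate 3 and 13 without IL-4 replicate 1 or 3. Both cytokine responses share the untreated libraries.

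By origin, of 47 members with a bacterial counterpart, 7 were higher and 1 lower with IL-33, and 17 higher and 1 lower with IL-4. Of 28 without a counterpart, 7 were called with IL-33 and 13 with IL-4, all higher. The shares of all genes called higher were 18.5% for IL-33 and 25.1% for IL-4. The difference between the origins was not tested. The medians with IL-4 were 0.17 and 0.22.

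In ST2KO-labelled cells no member, and no gene of the 14473, was called with IL-33 in edgeR (background 0%), nor by DESeq2. An edgeR fit with no filter on low counts called 30 genes higher and 40 lower of 24667, none of them a member. At an unadjusted p under 0.05, 1 member was lower and none higher, beside 239 genes higher and 268 lower. Mrpl52 was at 14.6, 19.8 and 16.9 CPM without cytokine and 18.0, 21.01 and 13.9 with IL-33 (0.04 ± 0.13). Mrpl45 was at 51.6, 51.2 and 49.6 CPM and at 53.3, 50.2 and 48.4 (-0.00 ± 0.05). Mrps25 was at 16.5, 18.2 and 17.4 CPM and at 19.3, 20.2 and 18.2 (0.14 ± 0.10). All 3 pairs of groups overlapped.

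The difference between the ST2KO-labelled and the wild-type IL-33 response was tested as an interaction. It was called for 7 members, each with the lower change in ST2KO-labelled cells, beside 22.7% of all genes (10.6% positive and 12.1% negative). These were Mrpl52 (-1.07 ± 0.18, adjusted p = 0.000149), Mrpl45 (-0.51 ± 0.07, adjusted p = 1.44e-05), Mrps36 (-0.44 ± 0.14), Mrps25 (-0.41 ± 0.14), Mrpl42 (-0.38 ± 0.11), Mrpl32 (-0.28 ± 0.10) and Mrpl28 (-0.27 ± 0.09). Mrpl52 and Mrpl45 stayed called in all 12 fits without 1 library and Mrpl42 in 11, but Mrps36 and Mrps25 in 4, Mrpl28 in 3 and Mrpl32 in 1. The number of negative calls was 2 without ST2KO-labelled IL-33 replicate 3. It was 3 without wild-type IL-33 replicate 1 or untreated ST2KO-labelled replicate 2. It was 4 when any 1 of the untreated wild-type libraries was left out. It was also 4 without wild-type IL-33 replicate 2, untreated ST2KO-labelled replicate 1 or ST2KO-labelled IL-33 replicate 1. No difference was positive at the threshold in edgeR, 3 were at an unadjusted p under 0.05, and DESeq2 called 1. With upper-quartile scaling 1 was positive and 4 negative, and the split over all genes turned, from 1539 positive and 1745 negative to 1841 and 1500. Without cytokine the ST2KO-labelled and wild-type cells differed in no member in edgeR (1.35% of all genes called, 0.871% higher and 0.484% lower), with 2 higher and 4 lower at an unadjusted p under 0.05 and 0 called by DESeq2.

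In floxed-labelled cells IL-33 raised 9 members and lowered 2, where 33.4% of all genes were called, 17.1% higher and 16.3% lower. The split over all genes moved with the scaling, from 2471 higher and 2364 lower to 2001 and 2985 with upper-quartile factors, where 4 members were higher and 4 lower. Mrpl52 was at 17.3, 22.4 and 19.6 CPM without cytokine and 31.5, 34.2 and 31.9 with IL-33 (0.72 ± 0.13, adjusted p = 0.000125). Mrpl45 was at 47.7, 45.9 and 49.2 CPM and at 68.2, 65.4 and 72.8 (0.53 ± 0.05, adjusted p = 2.57e-08). Neither pair of groups overlapped.

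The 9 rises became 4 without untreated floxed-labelled replicate 2 and 5 without IL-33 replicate 1 or 3. Of the 9, Mrpl52, Mrpl45, Mrpl20 and Mrpl43 were also called with IL-33 in wild-type cells. The others were Mrps18b (0.42 ± 0.15), Mrps28 (0.35 ± 0.12), Mrpl12 (0.31 ± 0.11), Mrpl34 (0.17 ± 0.07) and Mrpl32, whose protein is cleaved on import by the m-AAA protease (0.28 ± 0.07). Mrps18b shares 30.5% of its exon sequence with a gene on the other strand. All but Mrpl32 of these lost their call in some fits without 1 library. Mrpl43 (0.15) kept its call in 1 of 6 such fits, and Mrpl52, Mrpl45 and Mrpl20 kept theirs in all 6. The members that fell were Mrpl24 (-0.25 ± 0.06, adjusted p = 0.00231) and Mrpl48 (-0.28 ± 0.06, adjusted p = 0.000911). The difference from the wild-type response was called for Mrps6 alone (0.96 ± 0.22, adjusted p = 0.0381), beside 1.22% of all genes (0.539% positive and 0.677% negative). Mrps6 stood at 25.6, 18.2 and 25.6 CPM without cytokine and 31.2, 25.9 and 34.9 with IL-33 in floxed-labelled cells, a change of 0.40 ± 0.16 that was not called. The Mrps6 difference lost its call in 7 of 12 fits, those without untreated wild-type replicate 1 or 3, wild-type IL-33 replicate 2 or 3, untreated floxed-labelled replicate 2, or floxed-labelled IL-33 replicate 1 or 3. None of the 76 had a called negative difference in edgeR or DESeq2, and 3 had one at an unadjusted p under 0.05.

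Without cytokine, floxed-labelled cells differed from wild-type cells in Mrpl52, higher by 0.43 ± 0.13 (adjusted p = 0.0414), and Mrpl45, lower by 0.16 on the log2 scale (-0.16 ± 0.05, adjusted p = 0.0466), where 9.85% of all genes were called, 5.6% higher and 4.25% lower. These calls held in 1 and 2 of 6 fits without 1 library. The genotype label, sex, cell-cycle genes and the levels of neutrophil and lymphocyte markers differed between these groups together. Of 19 cell-cycle genes 10 were higher in the floxed-labelled cells, with a median of 0.36. The lymphocyte list summed to 149 to 177 CPM in untreated wild-type and 281 to 288 in untreated floxed-labelled libraries. The 6 neutrophil markers summed to 17.4 to 22.9 CPM in untreated wild-type libraries and 38.6 to 42.3 in untreated floxed-labelled ones. With IL-33 they summed to 42.7 to 46.5 CPM in wild-type and 55.5 to 79.1 in floxed-labelled cells, and with IL-4 to 13.4 to 15.1 CPM. Ly6g, which defines neutrophils, was at or under 0.0908 CPM throughout. The part of these in the results was not tested.

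Other genes that build or serve the mitochondrial ribosome were set beside the members. For each list that follows, the background in wild-type cells is the share of all 14473 genes called. It was 18.5% higher and 16.9% lower with IL-33, and 25.1% higher and 22.5% lower with IL-4. Of 7 ribosomal or ribosome-bound proteins under other names, 1 was called with IL-33, lower, and 3 rose and 1 fell with IL-4. The gene that fell with each was Oxa1l, the insertase that receives new chains at the inner membrane (-0.24 ± 0.06 and -0.36 ± 0.06). Those that rose with IL-4 were Gadd45gip1 (0.50 ± 0.12), Ptcd3 (0.24 ± 0.09) and Aurkaip1 (0.14 ± 0.05). Of 16 translation factors, 1 rose with IL-33 (Tufm, elongation factor Tu, 0.23 ± 0.06) and 6 with IL-4. The IL-4 set included Tsfm, the exchange factor of Tufm (0.52 ± 0.08), Tufm itself (0.42 ± 0.06), Gfm1, the elongation factor of translocation (0.32 ± 0.07), and Lrpprc, which stabilises mitochondrial mRNAs (0.28 ± 0.07). The medians of this list were 0.05 with IL-33 and 0.15 with IL-4.

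Of 25 assembly factors tested, 1 rose and 8 fell with IL-33, and 2 rose and 7 fell with IL-4, with medians of -0.16 and -0.06. Beside these falls, 16.9% of all genes were lower with IL-33 and 22.5% with IL-4. With IL-33 the largest were falls in Wbscr16 (-0.51 ± 0.12), Noa1 (-0.45 ± 0.10) and Trub2 (-0.34 ± 0.10) and a rise in Malsu1 (0.37 ± 0.12). With IL-4, Rbfa, which binds and matures the small subunit, fell from 84.3 to 51.0 CPM on average (-0.73 ± 0.05, adjusted p = 1.44e-11). Tfb1m, which methylates the small ribosomal RNA, rose by 0.60 ± 0.14, and Mpv17l2 by 0.42 ± 0.08. In floxed-labelled cells 4 were called with IL-33, all lower, where 16.3% of all genes were lower.

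Of 17 mitochondrial aminoacyl-tRNA synthetases, 1 rose with IL-33 (Rars2, 0.20 ± 0.08), while 4 rose and 2 fell with IL-4, among them Nars2 (0.52 ± 0.18) and Vars2 (-0.52 ± 0.15). Of 15 genes for mitochondrial DNA transcription and replication, Hsd17b10 rose with IL-33 (0.20 ± 0.07). With IL-4, 3 rose and 2 fell, and the falls were in Polg, the catalytic subunit of the mitochondrial DNA polymerase (-0.93 ± 0.09), and its accessory subunit Polg2 (-0.70 ± 0.10). Counts of mitochondrial transcripts were uneven. Untreated wild-type cells averaged 707 CPM of mt-Co1, 8.47 of mt-Co2, 91.3 of mt-Rnr1 and 95.8 of mt-Rnr2. How far such counts follow RNA abundance was not tested. The count of mt-Rnr1, the RNA of the small mitochondrial subunit, was lower with both cytokines (-0.54 ± 0.20 and -0.56 ± 0.20). That of the large subunit, mt-Rnr2, changed by -0.31 and -0.30 and was not called. Among the 15 mitochondrial transcripts tested, mt-Rnr1 was the only call with IL-33, and 4 rose with IL-4, of which mt-Tp (0.63 ± 0.26) and mt-Nd5 (0.50 ± 0.18) changed most.

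Among 12 regulators of mitochondrial gene expression, 4 rose with IL-33, and 7 rose and 1 fell with IL-4. Ppargc1b, a coactivator of mitochondrial genes, went from 2.14 CPM on average to 6.31 with IL-33 (1.56 ± 0.18) and 16.0 with IL-4 (2.90 ± 0.18). Myc, which drives ribosome synthesis, went from 8.20 CPM to 15.04 (0.88 ± 0.20) and 35.2 (2.10 ± 0.20). In ST2KO-labelled cells Myc stood at 14.8 CPM without cytokine and 14.6 with IL-33, and Ppargc1b at 2.47 and 2.33. The 97 cytosolic ribosomal protein genes include many with near-identical copies, which makes counting uncertain. Of them, 18 rose and 3 fell with IL-33, and 29 rose and 2 fell with IL-4, with medians of 0.04 and 0.10. The shares called higher were 18.6% and 29.9%, beside 18.5% and 25.1% of all genes. Of 19 cell-cycle genes, 2 rose and 2 fell with IL-33 and 15 rose with IL-4, with a median of 0.46. The part of cell division in the IL-4 result was not tested.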

How the data were processed

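RNA of cultured macrophages was measured by paired-end sequencing (150 bases) of libraries from 1 ug of RNA made with a NEBNext Ultra kit, per the labels' protocols. The values are read counts per gene as deposited by the authors, in 1 table. HISAT2 2.0.5, HTSeq 0.6.1 and DESeq2 1.22.2 and the assembly GRCm38 (mm10) appear in the submitters' processing notes, while the gene annotation and the strand setting of the counting are not given in the sources used here.

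All 21 libraries entered 1 quasi-likelihood fit in edgeR 4.0.16 (R 4.3.3) with a mean per group, TMM scaling and the filterByExpr filter, which kept 14473 genes with 99.97% or more of each library's counts. The common dispersion was 0.0074 and the fit left 14 residual degrees of freedom. P-values were adjusted by Benjamini-Hochberg over all tested genes within each of 9 comparisons, and calls needed an adjusted p below 0.05. The script was tested on simulated data. Changes are log2 values ± standard error, and levels are CPM with SD over 3 libraries. Upper-quartile and RLE scaling, no filter, DESeq2 1.42.0, the compared groups alone, a replicate block and leaving out each library were the alternatives.

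Positions, exon lengths and shared exons come from GENCODE M21 (GRCm38) and promoters from RefSeq (GRCm38.p6). Of the tested members 31 share some exon sequence with another annotated gene, 7 of them on the same strand. Members named are, for each comparison, up to 8 called rises and 8 called falls of largest size, the extremes of level, and 9 genes of known role, with other called members named to complete a list. The members and gene lists were chosen, and the genes sorted by bacterial origin, with earlier results of these data known.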

Additional observations from a re-analysis of the deposited data

Results flagged for a closer look

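These results were singled out because the IL-33 response differed between a labelled genotype and the wild type in a test of the difference itself, on the log2 scale. For ST2KO-labelled minus wild-type cells the differences were -1.072 for Mrpl52, -0.507 for Mrpl45, -0.437 for Mrps36, -0.405 for Mrps25, -0.383 for Mrpl42, -0.278 for Mrpl32 and -0.272 for Mrpl28. The wild-type change of Mrps36 (0.22 ± 0.10, adjusted p = 0.0937) and of Mrpl32 (0.16 ± 0.07, adjusted p = 0.0864) was itself not called. For floxed-labelled minus wild-type cells the difference was 0.956 for Mrps6, whose libraries were lower with IL-33 in wild-type cells and higher in floxed-labelled ones. In the same comparison Slc5a3, which shares an exon with Mrps6, changed by -0.96 ± 0.23 in wild-type cells and by 0.53 ± 0.23 in floxed-labelled cells, where it was not called. Mrps6 already differed in level without cytokine, at 28.4 to 37.2 CPM in wild-type and 18.2 to 25.6 CPM in floxed-labelled libraries, a difference not called. Groups held 3 libraries each, so no single library was tested as standing apart.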

How the results depend on the processing

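Direction was checked for the called changes of largest size in each comparison, and none of these reversed in any fit. For the changes of named members that were not called, direction was not checked. Medians near 0 changed sign when 1 library was left out. The median over the members ran from -0.033 to 0.045 for the floxed-labelled interaction, from -0.033 to 0.005 and from -0.034 to 0.019 for untreated floxed-labelled and ST2KO-labelled against wild-type cells, and from -0.035 to 0.008 for IL-33 in ST2KO-labelled cells. With upper-quartile scaling, IL-33 in wild-type cells called 7 members higher and 3 lower with a median log2 change of 0.004, IL-4 called 2 lower, IL-33 in floxed-labelled cells called 4 higher and 4 lower, the ST2KO-labelled interaction 1 positive and 4 negative, and untreated floxed-labelled against wild-type cells 0 lower. With RLE scaling, that last comparison had 2 lower. Without a filter, IL-4 had 2 lower, the ST2KO-labelled interaction 1 positive and untreated ST2KO-labelled against wild-type cells 1 lower. DESeq2 gave 1 positive interaction for ST2KO-labelled cells and 2 lower in untreated floxed-labelled cells. With only the groups compared, IL-4 had 2 lower, the ST2KO-labelled interaction 1 positive and untreated ST2KO-labelled cells 1 lower. Without scaling factors, a setting added after seeing the data, the summed level of the members averaged 1985 CPM in untreated wild-type cells and 2018 CPM with IL-33. The cause was not tested.

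Same-numbered libraries deviated together little (correlations of -0.022 to 0.110 over 21 pairs), which cannot exclude a pairing by number. For untreated ST2KO-labelled against wild-type cells, 126 genes were higher and 70 lower in the main fit. A replicate block made these 300 and 290. With the replicate block, 13 and 32 members were called higher with IL-33 and IL-4, the ST2KO-labelled interaction had 1 positive, untreated ST2KO-labelled cells 1 lower and untreated floxed-labelled cells 2 lower.

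Leaving out 1 library in turn gave 7 to 11 members higher and 0 to 2 lower with IL-33, 21 to 29 higher and 1 to 3 lower with IL-4, and 10 to 19 lower in IL-33 against IL-4. It gave 4 to 13 higher in floxed-labelled cells with IL-33, 0 to 1 positive and 2 to 7 negative ST2KO-labelled interactions, 0 to 1 positive floxed-labelled interactions, and 0 to 1 higher and 0 to 1 lower in untreated floxed-labelled cells. For the called changes of largest size in each comparison, the other fits kept the call in 280 cases and lost it in 26. The fits without a library kept it in 265 and lost it in 89. Among the members, Mrpl53 was the one at 0 counts, where no change could be computed.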

Other observations

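The 5 names left out as pseudogenes held few reads. Over all 21 libraries Mrpl23-ps1 had 1274 counts, Mrpl48-ps 1105, Mrps36-ps1 226, Mrps36-ps2 117 and Mrps36-ps3 0.

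Within 20000 bases, 72 members had another tested gene. Mrpl54 rose by 0.36 ± 0.08 with IL-4, where Matk, a tyrosine kinase gene 1347 bases away on the other strand, rose by 1.87 ± 0.14 and Tjp3, 6272 bases away on the same strand, fell by 0.58 on the log2 scale. Slc7a7, 9128 bases from Mrpl52 on the other strand, changed by 0.46 ± 0.13 with IL-33 and by -1.30 ± 0.14 with IL-4. These neighbours were picked after their values were seen.

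Without cytokine, 6 of the 15 mitochondrial transcripts were higher in ST2KO-labelled than in wild-type cells, where 0.871% of all genes were higher. Their median log2 difference was 0.73, while the median over the members was -0.01. The count of mt-Rnr1 averaged 91.3 CPM in wild-type and 138 CPM in ST2KO-labelled cells, and that of mt-Rnr2 95.8 and 163 CPM. How far counts of mitochondrial transcripts follow RNA abundance was not tested.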
